A study of Caenorhabditis elegans with 2 samples.

Results

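Binding of C04F5.9 was examined at the genes for the subunits of the proteasome in Caenorhabditis elegans. The 33 genes were all those annotated as protein-coding in Ensembl release 115 (assembly WBcel235) whose symbol starts with pas-, pbs-, rpn- or rpt-, out of 19973 protein-coding genes on the 6 nuclear chromosomes. The rule uses symbols and no measured value, although it was set with earlier results of these data known. All 33 symbols also stood in the RefSeq gene table. They comprise 7 alpha and 7 beta subunits of the core particle, 6 ATPases and 4 other subunits of the base, and 9 genes of the lid.

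The zinc finger protein C04F5.9 (C2H2 type, by its annotation) was mapped by ChIP-seq, in which DNA bound to a protein is recovered with an antibody and sequenced. Strain OP525 carries unc-119(tm4063) and the integrated transgene wgIs525, which expresses C04F5.9 with GFP and FLAG at its C terminus, and the antibody was against GFP. Animals were hermaphrodites at the first larval stage, collected 6 hours after synchronisation by bleaching and starvation, and whole larvae of this 1 strain were used in 2 biological replicates that form 1 group. Binding of the tagged transgene product in a mixture of all tissues is therefore what was measured, and no second condition was compared.

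The deposited ce11 lists hold 30000 regions for replicate 1, 28005 for replicate 2, 30000 for both combined, and 1205 in the optimal list, which was thresholded by the irreproducible discovery rate (agreement of ranks between replicates). The longer lists are relaxed and hold background as well as bound regions. Each region has a signal value from the authors and a summit, the position of its maximum. Rank 1 is the highest signal within a list. All 1205 optimal peaks were the 1205 strongest combined-list regions, so the rank of an optimal peak is the same in both lists. The number of reads behind the lists is unknown.

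The proteasome degrades proteins marked with ubiquitin. Its core is a barrel of alpha rings, which gate the entrance, and beta rings, which hold the protease sites. The regulatory particle caps the barrel: an ATPase ring and scaffold subunits form the base, which unfolds substrates, and the lid removes the ubiquitin chain. All parts are needed in fixed proportions. In C. elegans the transcription factor SKN-1 raises expression of the subunit genes when proteasome function falls.

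Of the 33 genes, 9 had an optimal peak, meaning a summit within 500 bp of the 5′ end of any annotated transcript (27.3%). Over all protein-coding genes the share was 5.51%. The 9 were pas-3, pas-4, pbs-7, rpt-2, rpt-4, rpn-2, rpn-3, rpn-9 and rpn-11. Their ranks ran from 125 to 953 of 1205. Their signal values ran from 84.1 at rpt-4 to 260.7 at rpn-3, and the median of the list was 114.9, with 4 of the 9 above it and 5 below.

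The sequence around the summit is shown for the 6 of these genes whose peaks can be printed here. The word ATTGTCAT, of 8 bases and on either strand, stands within 50 bp of the summit in 3 of the 6 printed sequences. rpn-11 also holds the word within 50 bp of its summit, in annotated transcript that was left out of its print. Each sequence is the strand of the subunit gene, 5′ to 3′, from the RefSeq genome in ce11 coordinates. It covers 50 bp on each side of the summit, less at rpn-11. Capitals mark ATTGTCAT or its reverse complement, and at rpn-9 the word AGACGCAG.
rpn-11 (chrII:4044547-4044613, minus strand): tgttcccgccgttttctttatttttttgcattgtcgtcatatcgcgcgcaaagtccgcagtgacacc
rpt-4 (chrII:43771-43871, minus strand): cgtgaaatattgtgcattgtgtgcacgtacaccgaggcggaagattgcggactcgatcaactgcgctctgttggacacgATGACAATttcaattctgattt
rpn-9 (chrII:11239108-11239208, minus strand): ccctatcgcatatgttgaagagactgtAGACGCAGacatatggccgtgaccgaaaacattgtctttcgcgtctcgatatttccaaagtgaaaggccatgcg
rpn-2 (chrIII:6198788-6198888, plus strand): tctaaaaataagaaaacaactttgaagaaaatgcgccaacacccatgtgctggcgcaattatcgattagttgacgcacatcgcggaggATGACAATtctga
rpn-3 (chrIII:8447108-8447208, plus strand): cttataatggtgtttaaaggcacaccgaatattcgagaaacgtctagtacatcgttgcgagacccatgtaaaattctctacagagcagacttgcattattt
rpt-2 (chrV:6017764-6017864, minus strand): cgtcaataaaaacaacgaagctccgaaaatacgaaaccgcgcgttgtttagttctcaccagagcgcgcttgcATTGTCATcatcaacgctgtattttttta

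In the core alpha ring, 2 of 7 genes had an optimal peak. The pas-4 peak (chromosome I, 8728451 to 8728834, ce11) had its summit 156 bp upstream of the 5′ end, at rank 375, with rank 296 in replicate 1 and 611 in replicate 2. The pas-3 peak (chromosome I, 5106045 to 5106428) had its summit 189 bp upstream, at rank 853, with ranks 1081 and 789 in replicates 1 and 2. The pas-4 summit fell inside the non-coding RNA gene C36B1.16 and the pas-3 summit inside an exon of use-1. Both peaks also lay within reach of another gene whose 5′ end was nearer.

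The other alpha genes had only weak regions in the combined list. The nearest summit was 261 bp upstream at pas-2 (rank 3060), 171 bp upstream at pas-7 (rank 7127), 214 bp upstream at pas-6 (rank 9300) and 312 bp upstream at pas-5 (rank 15247). At pas-1 it was 380 bp downstream (rank 5731). pas-1 is the third gene of a close run on 1 strand, behind rrsr-1 and rpoa-12, and the region at rrsr-1, the first of the run, was no stronger (rank 13287). At pas-5 an optimal peak lay beyond the window, 1137 bp upstream (rank 304).

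Replicates differed widely in rank at pas-6 and pas-7, and less at pas-1, pas-2 and pas-5. At pas-6 the nearest region ranked 2040 in replicate 2 and 26280 in replicate 1, where it lay on the other side of the 5′ end. At pas-7 the ranks were 3873 and 23886 in replicates 2 and 1. The strongest replicate 1 region within 500 bp ranked higher than the nearest at both, at 13113 for pas-6 and 8037 for pas-7.

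In the core beta ring, 1 of 7 genes had an optimal peak, and it was among the strongest at any subunit. The pbs-7 peak (chromosome I, 8696364 to 8696499) was narrow, with its summit 116 bp upstream, at rank 128, and ranked 182 in replicate 1 and 101 in replicate 2. pbs-7 encodes a beta subunit without a protease site.

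The genes of the 3 protease subunits, pbs-1, pbs-2 and pbs-5 by their counterparts in yeast, had no optimal peak. pbs-1 came closest: its summit 207 bp upstream ranked 1278, just past the 1205 of the optimal list, with ranks 1611 and 1156 in replicates 1 and 2. At pbs-2 the nearest summits of the replicates differed. Replicate 1 had one 108 bp upstream (rank 15184) and replicate 2 one 329 bp upstream (rank 799). The strongest replicate 1 region within 500 bp of pbs-2 was 374 bp downstream at rank 7602. The strongest combined-list region within 500 bp of pbs-2 was 394 bp upstream at rank 2195, while the nearest was 375 bp downstream at rank 11046. At pbs-5 the nearest summit was 85 bp downstream (rank 7719). pbs-5 starts 110 bp behind K05C4.2 on the same strand, and K05C4.2 had an optimal peak 246 bp upstream of its own 5′ end (rank 1081). Whether the pair shares a transcript was not tested.

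The remaining beta genes had combined-list regions upstream. The nearest summit ranked 1651 at pbs-6 (485 bp upstream), 2459 at pbs-4 (114 bp) and 5481 at pbs-3 (87 bp). pbs-3 starts 22 bp behind ulp-2 on the same strand, so that summit falls within ulp-2. The region nearest the ulp-2 5′ end ranked 29760. The replicates placed the pbs-3 summit on opposite sides of its 5′ end. It lay 56 bp downstream in replicate 1 (rank 2350) and 153 bp upstream in replicate 2 (rank 11158). At pbs-6 the strongest region within 500 bp was 477 bp upstream in replicate 1 (rank 1694) and 489 bp upstream in replicate 2 (rank 10110). The nearest pbs-6 summits were weaker regions, 135 bp downstream in replicate 1 (rank 22705) and 445 bp downstream in replicate 2 (rank 13479).

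Among the 6 ATPase genes of the base, rpt-2 and rpt-4 had optimal peaks. The rpt-2 peak (chromosome V, 6017622 to 6018005) had its summit 145 bp upstream, at rank 661, with ranks 535 and 1242 in replicates 1 and 2, and fell inside the non-coding RNA gene F29G9.10. The rpt-4 peak (chromosome II, 43629 to 44012) had its summit 159 bp upstream of the 5′ end of the shorter transcript, inside an intron of the longer one, at rank 953, with ranks 920 and 1234. The latter rank in each gene lies past the 1205 strongest of replicate 2, so neither would be called from that replicate alone at the same list length.

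At rpt-5 a region of rank 1531 lay 593 bp upstream, outside the window in all 3 relaxed lists, with ranks 2401 and 1716 in replicates 1 and 2. rpt-6 had a region of rank 1942 at 279 bp upstream and a weaker one (rank 21900) nearer, at 31 bp. rpt-1 (rank 10483, 278 bp downstream) and rpt-3 (rank 18551, 185 bp upstream) had only weak regions.

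Of the 4 base genes without ATPase function, rpn-2 had an optimal peak. It encodes a scaffold of the base. The peak (chromosome III, 6198646 to 6199029) had its summit 346 bp upstream, farther from the 5′ end than any other of the 9, and ranked 759, with ranks 677 and 1002 in replicates 1 and 2. rpn-13, encoding a ubiquitin receptor, was just past the list: its summit 325 bp upstream ranked 1408, with ranks 1592 and 1731.

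The others were weak or distant. rpn-1, the other scaffold, had a region of rank 16354 at 352 bp upstream. At rpn-10, a further ubiquitin receptor, the nearest summit was 1129 bp upstream (rank 6841). rpn-10 starts 118 bp behind mrpl-9 on the same strand, and that region lay 113 bp downstream of the mrpl-9 5′ end.

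The lid held 3 of the 9 optimal peaks among its 9 genes. rpn-3 had the highest-ranked peak of all subunit genes (chromosome III, 8447078 to 8447239), with its summit 195 bp upstream, at rank 125 and at 149 and 106 in replicates 1 and 2. rpn-11 encodes the deubiquitinating enzyme of the lid. Its peak (chromosome II, 4044493 to 4044642) had its summit only 17 bp upstream, at rank 272, with ranks 215 and 384. The rpn-9 peak (chromosome II, 11238966 to 11239349) lay 239 bp upstream at rank 698, with ranks 743 and 822, the closest agreement of summit positions among the 9 (1 bp).

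Of the other lid genes, rpn-5 had a summit 55 bp upstream (rank 2172) and rpn-8 one 75 bp upstream (rank 3410). rpn-6.1 had a region of rank 1667 at 464 bp upstream, although its nearest summit was 388 bp downstream (rank 7133). The replicates differed there. The strongest region within 500 bp of rpn-6.1 was 444 bp upstream in replicate 1 (rank 2272) and 348 bp downstream in replicate 2 (rank 15939). rpn-12 (127 bp downstream, rank 6750) and rpn-7 (292 bp upstream, rank 11175) were weaker. The nearest summit to rpn-7 was 3224 bp downstream in replicate 1 (rank 16182) and 286 bp upstream in replicate 2 (rank 2449). rpn-6.2, a paralogue of rpn-6.1, had none within 500 bp in the combined list: its nearest summit was 1993 bp downstream (rank 21071).

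**Figure D1:**
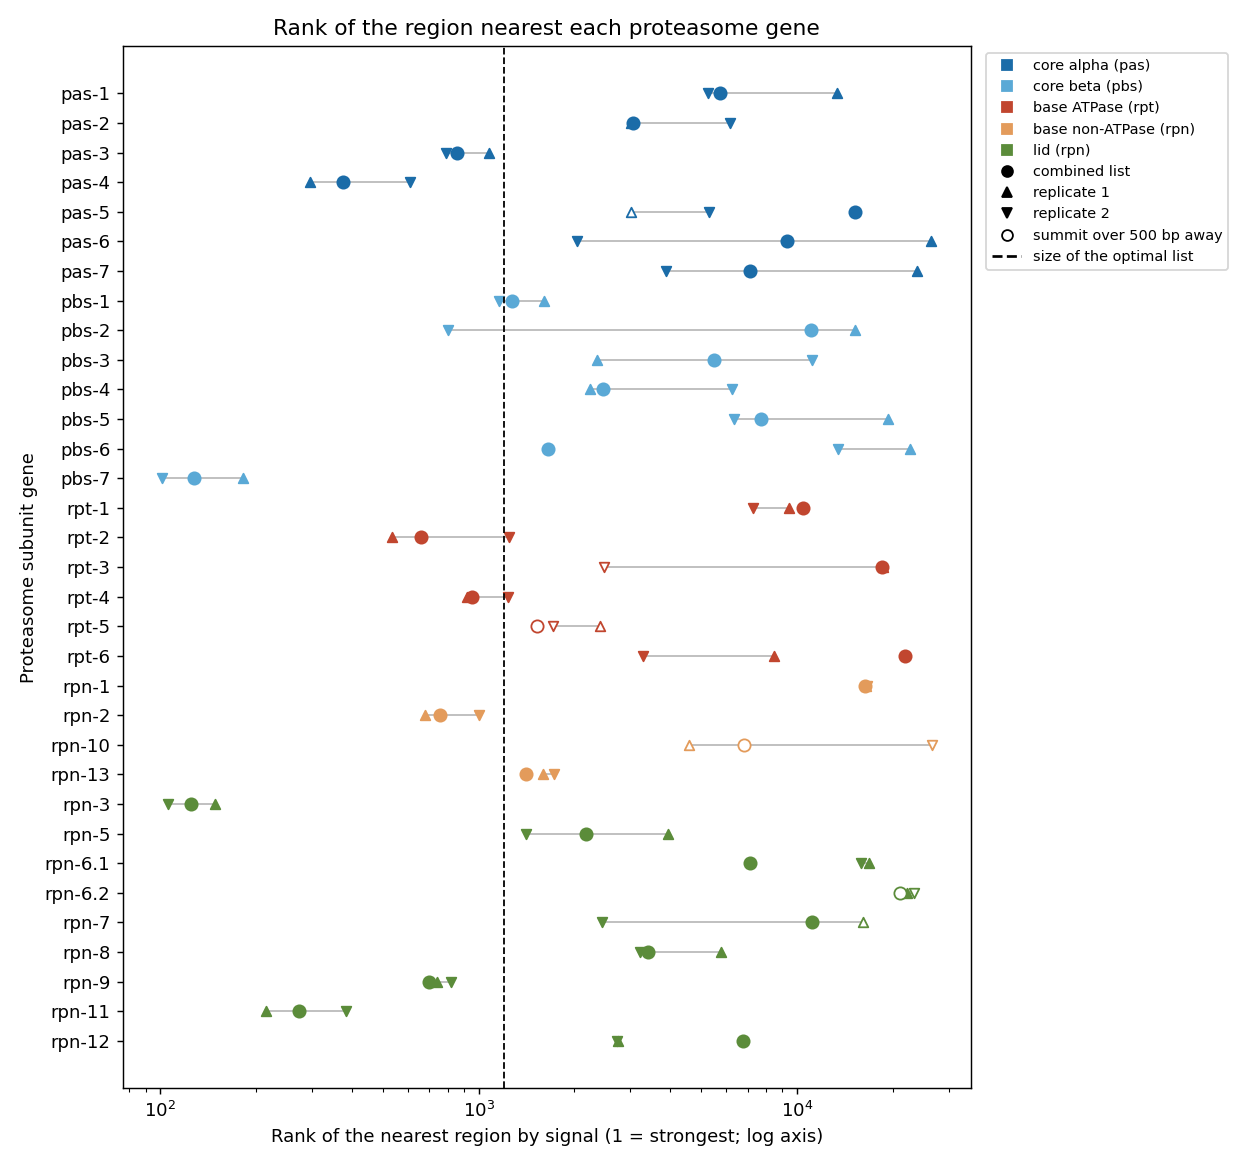
Rank of the region nearest each of the 33 genes (vertical axis) in the combined list, replicate 1 and replicate 2 (horizontal log axis, 1 is strongest). Grey lines join the replicates, open symbols mark summits over 500 bp away, and the dashed line is the optimal list's 1205 peaks. The combined-list symbols of the 9 genes lie left of it, from rank 125 to 953, with replicate ranks of at most 1242, while those of pas-6 run from 2040 to 26280.

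The optimal summits at pbs-7, rpn-2, rpn-3, rpn-9 and rpn-11 were in no annotated gene. The share of genes with an optimal peak was 3 of 14 in the core and 6 of 19 in the regulatory particle. By class it was 2 of 7 alpha, 1 of 7 beta, 2 of 6 ATPase, 1 of 4 other base and 3 of 9 lid genes. With so few genes in a class no difference between classes was tested. Every class held at least 1 gene with an optimal peak and several without. The median rank of the nearest combined-list region was 5731 for alpha, 2459 for beta, 6007 for ATPase, 4124.5 for other base and 3410 for lid genes. Each class spans far more than these medians differ, from rank 125 at rpn-3 to 21071 at rpn-6.2 within the lid.

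The relaxed lists reached most of the remaining genes. In the combined list 30 of 33 had a summit within 500 bp (90.9%), against 37.8% of all protein-coding genes. The exceptions were rpt-5, rpn-10 and rpn-6.2. Replicate 1 alone reached 28 genes, with 37.4% of all genes, and replicate 2 alone reached 29, with 36.5% of all genes. All 14 core genes and 16 of the 19 regulatory genes were reached in the combined list. The median rank of the nearest region, whatever its distance, was 3410 for the 33 genes and 15580 for all protein-coding genes.

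Some of these regions ranked not far below the optimal list, and others far below it. Within the 2410 strongest combined-list regions, 16 of the 33 genes had a summit within 500 bp (48.5%), against 9.11% of all genes. These counts include the 9 genes with an optimal peak. Within the 5000 strongest the count was 19 (57.6%), against 13.9% of all genes. The last 11 of the 30 genes were reached only at lower ranks.

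**Figure D2:**
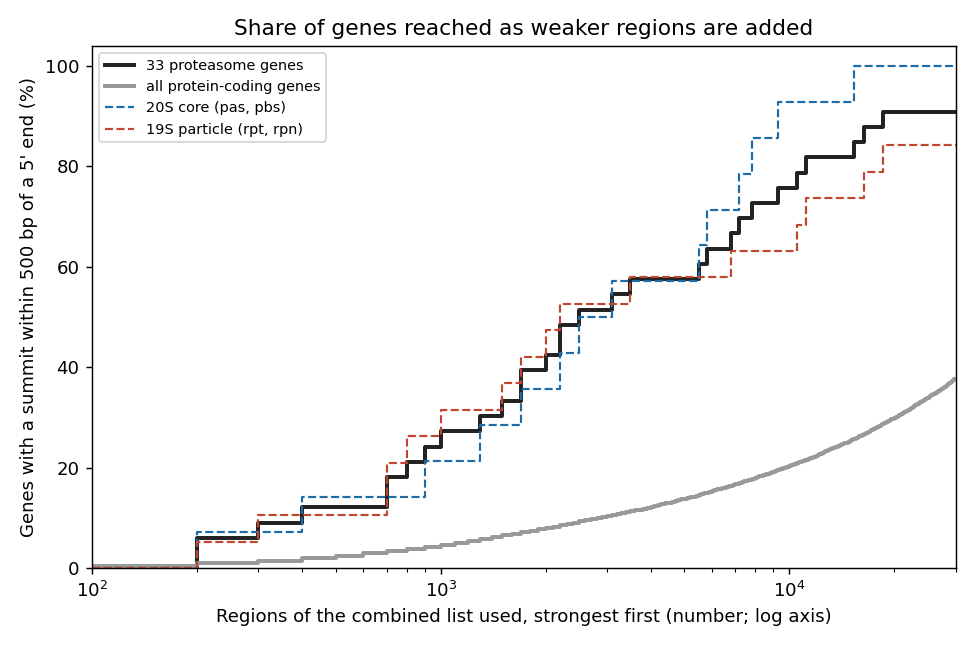
Share of genes with a summit within 500 bp of a 5′ end (vertical axis, percent) as regions of the combined list are added from the strongest down (horizontal log axis). The black line, for the 33 genes, ends at 90.9% and the grey line, for all protein-coding genes, at 37.8%. Dashed lines split the 33 into the 14 core (20S) and 19 regulatory (19S) genes.

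The peaks at subunit genes were mostly shared with a divergent neighbour. At 8 of the 9 genes another protein-coding gene, on the opposite strand in each case, also started within 500 bp of the summit. Among the 1101 genes with an optimal peak, 595 (54.0%) were at a peak shared with another gene, whatever its strand. The exception was rpn-11, whose upstream neighbour K07D4.2 lies on the same strand and ends 224 bp before it. Of all 33 genes, 20 (60.6%) had their nearest upstream neighbour on the opposite strand within 1000 bp, against 17.5% of all protein-coding genes and 55.9% of genes with an optimal peak. Among the 24 without an optimal peak it was 13 (54.2%).

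The partners belong to several functions. At rpn-3 the partner was hsp-110, encoding a heat shock protein (249 bp from the summit, against 195 bp for rpn-3). At pas-4 it was rpb-3, encoding an RNA polymerase subunit, and its 5′ end was nearer (121 against 156 bp). At rpt-2 it was aps-1, encoding a clathrin adaptor subunit (156 against 145 bp). At pas-3 the summit lay inside the 5′ UTR of use-1, 33 bp from that gene's 5′ end. At rpt-4 it was nfyc-1, encoding a subunit of transcription factor NF-Y, which was nearer (86 against 159 bp). The partners at pbs-7 (F39H11.1, 186 bp), rpn-2 (C23G10.7, 424 bp) and rpn-9 (T06D8.9, 439 bp) were farther than the subunit gene. Distance therefore favoured the subunit gene at 6 of the 9 peaks, and it cannot tell which gene of a pair the binding concerns.

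**Figure D3:**
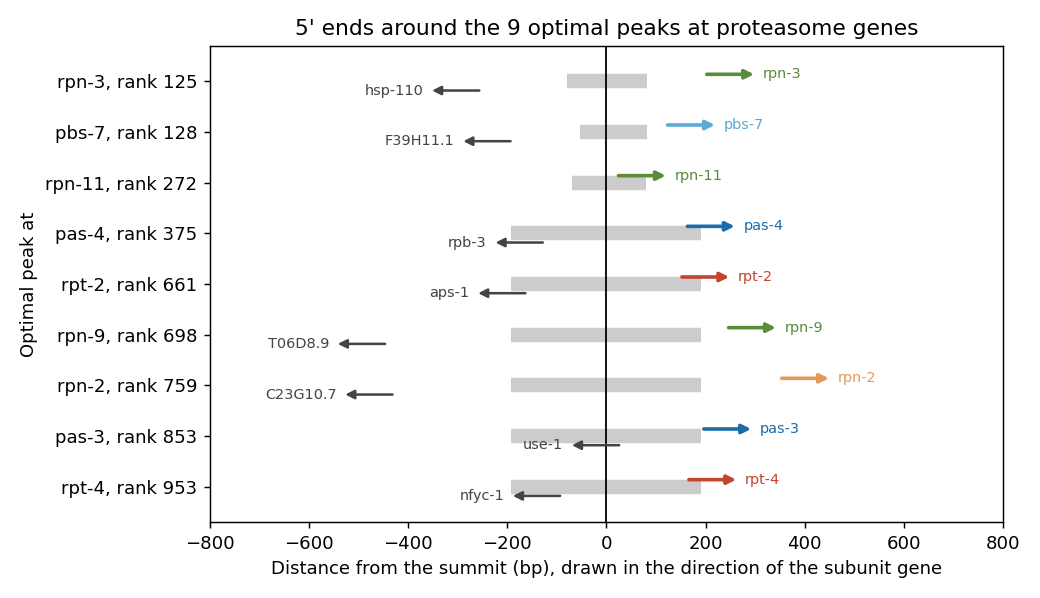
Gene starts around the 9 optimal peaks, ordered by rank, with the summit at 0 and distance in bp on the horizontal axis, drawn in the direction of the subunit gene. Grey bars are the peaks, coloured arrows start at the 5′ end of the subunit gene and dark arrows at that of its partner. In 7 of the 9 the summit lies between 2 gene starts that point apart. The use-1 start lies past the summit at pas-3, and rpn-11 has no partner.

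All 9 optimal summits lay upstream of the subunit gene, at 17 to 346 bp. Of the 1101 genes with an optimal peak, 92.5% had the nearest summit upstream. In the combined list 24 of the 30 reached genes had it upstream, against 58.6% of the 7544 genes reached in all. These 30 are the genes that the 500 bp window admits, so this describes them only.

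**Figure D4:**
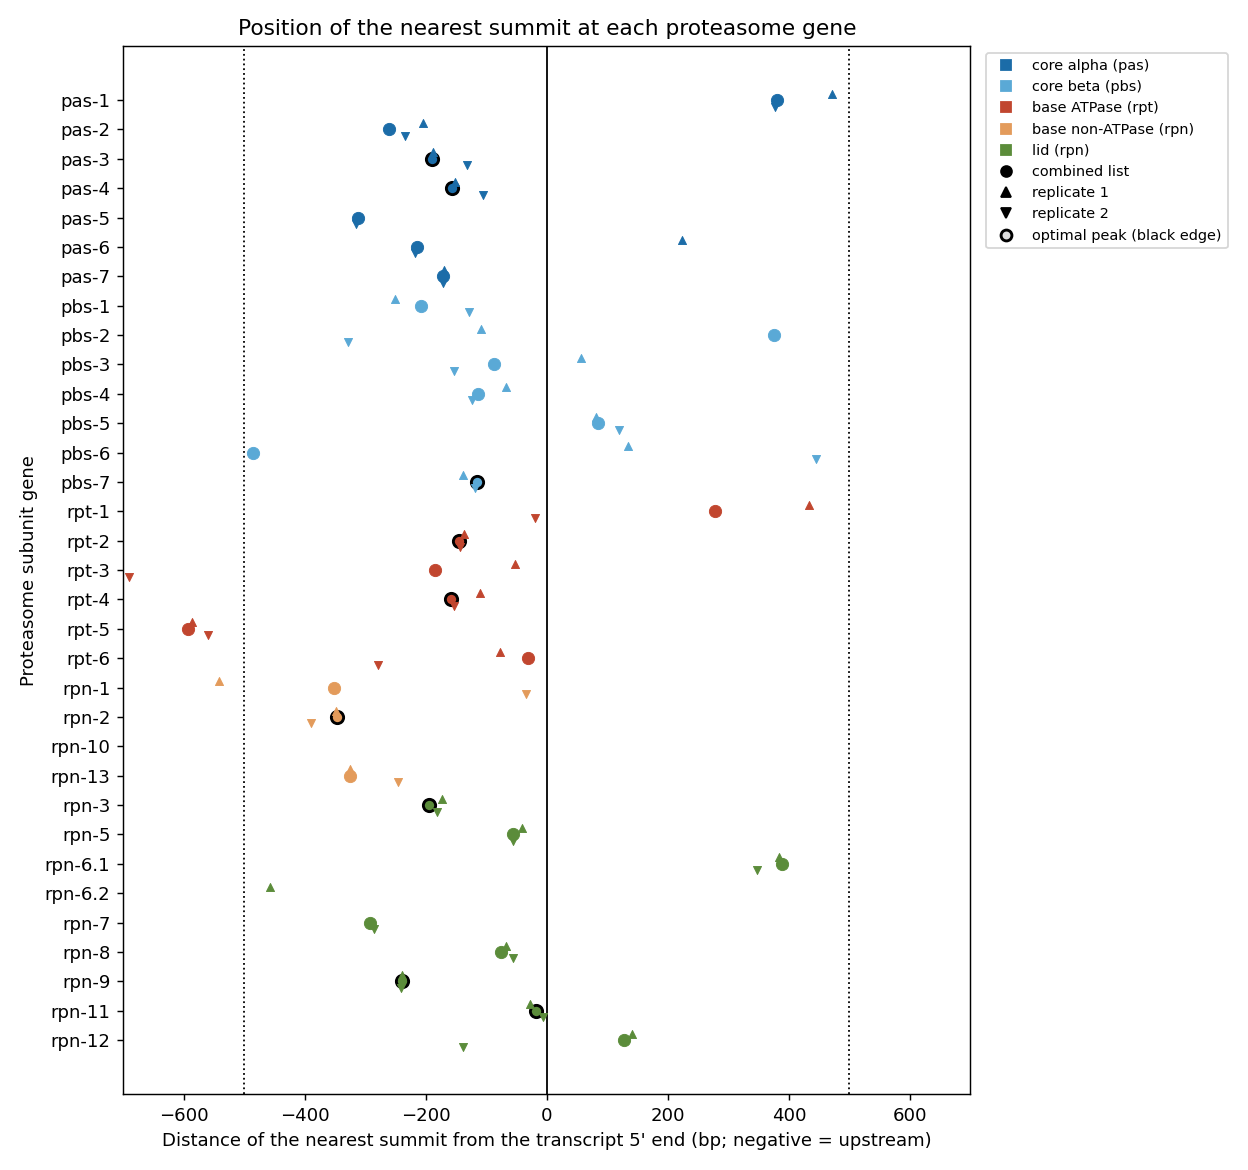
Distance of the nearest summit from the 5′ end of each gene (horizontal axis, bp, negative is upstream) in the combined list and each replicate. Dotted lines mark 500 bp, black edges mark the 9 optimal peaks, and summits over 700 bp away are not drawn. The 9 optimal summits lie between 17 and 346 bp upstream with replicate symbols beside them.

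Replicates placed the summits of the 9 optimal peaks close together. The distance between the nearest summits of replicates 1 and 2 was 1 to 57 bp, with a median of 20 bp. For the other 24 genes the median was 205.5 bp and the largest 3518 bp, and the 2 nearest regions overlapped at 17 of the 24. The 9 are also the genes with the strongest combined-list regions within 500 bp, and the combined list was made from the same replicates, so the smaller gap describes strong peaks.

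The word ATTGTCAT, on either strand, lay within 50 bp of the summit at 4 of the 9 peaks: rpt-2, rpt-4, rpn-2 and rpn-11. It was found in 6 of all 1205 optimal peaks (0.498%), so 4 of the 6 were at subunit genes. The other 2 were at nhr-57 (rank 958) and at a peak with no 5′ end within 500 bp (rank 1192). The word was chosen after the sequences printed above had been seen, so these counts describe these peaks and carry no test. Its middle was 25 bp from the summit at rpt-2, 32 bp at rpt-4, 42 bp at rpn-2 and 44 bp at rpn-11. At rpn-11 it fell in the annotated transcript that is not printed. The word was nearer the summit at the other 2 peaks, 0 bp away at nhr-57 and 16 bp away at the peak of rank 1192.

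ATTGTCAT is 1 of the 8 words made of A or T, again A or T, then T, then A or G, and last TCAT, the form known to be bound by SKN-1. In the window from 250 bp before to 50 bp after the outermost 5′ end, 5 of the 33 genes held ATTGTCAT (15.2%), against 1.93% of all protein-coding genes and 1.54% of genes with an optimal peak. They were pas-2, pbs-1, rpt-2, rpn-11 and rpn-12, of which 2 had an optimal peak. Any of the 8 words stood in 11 of the 33 windows (33.3%), against 16.5% of all genes, at 3 of the 9 genes with an optimal peak and 8 of the 24 without. Both the word and the form of 8 words were chosen after the sequences at the subunit genes had been seen. rpt-2 and rpn-11 also hold ATTGTCAT at their summits, so their promoter windows are not independent of that choice. These shares describe the genes and carry no test. Nothing about binding by SKN-1 was measured.

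Words that recur at other C04F5.9 summits were each found at 1 of these genes. AGACGCAG occurred within 50 bp of the summit in 113 of 1205 optimal peaks (9.38%) and in 1 of the 9 here, rpn-9. GCAAACAC occurred in 84 (6.97%) and in 1 of the 9, rpn-11, where it fell in the annotated transcript that is not printed. Both words come from an earlier look at these peaks. In the 301 bp promoter windows AGACGCAG was in 0 of 33 genes and 3.54% of all genes, and GCAAACAC in 2 of 33 (rpt-5 and rpn-11) and 2.40% of all genes.

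Base composition also varied among the 9. GC content within 50 bp of the summit was above that of the flanks (200 to 250 bp away) in 4 of the 9, against 1015 of all 1205 optimal peaks. The 4 were rpt-4 (46.5% against 44%), rpn-2 (41.6% against 31%), rpn-9 (47.5% against 32%) and rpn-11 (51.5% against 42%). At pas-3 the summit was poorer in GC than the flanks (30.7% against 39%). The median at the summit was 42.6% for the 9 and 47.5% for all optimal peaks.

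Genes that act with the proteasome were examined as lists set by symbol. Of 23 regulators and ubiquitin genes found, 6 had an optimal peak (26.1%): cdc-48.1, ufd-3, ecps-1, ubq-2, aip-1 and ufd-2. cdc-48.1, encoding the segregase that hands unfolded substrates to the proteasome, had the strongest peak of the list (rank 24, with ranks 23 and 24 in replicates 1 and 2), stronger than at any subunit gene. ufd-3 (rank 182) and ufd-2 (rank 1072) encode partners of CDC-48. At ufd-2 the nearest region ranked 1009 in replicate 1 and 3355 in replicate 2. ecps-1, annotated as related to the proteasome adaptor Ecm29, had a peak at rank 229, and ubq-2, encoding ubiquitin fused to a ribosomal protein, one at rank 507 that it shared with frg-1. aip-1, encoding a protein with an AN1-type domain, had rank 995 and shared it with ddx-17.

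Within the same list of 23, skn-1, ddi-1 and png-1, named here for their part in the SKN-1 pathway, had no optimal peak. Within 500 bp of a 5′ end, skn-1 had a combined-list region of rank 3443 and ddi-1, encoding the protease that activates SKN-1, one of rank 22957. png-1, encoding the glycanase of that pathway, had none within 500 bp. dss-1, encoding a small lid subunit whose symbol lies outside the rule, had rank 26561. rpn-12 lies head to head with rad-23, encoding a shuttle for ubiquitinated proteins, and the region between them that held ATTGTCAT ranked 15572.

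Ubiquitin-conjugating enzymes (symbols ubc- and uev-) counted 5 optimal peaks among 24 genes (20.8%). They were at ubc-7 (rank 427), ubc-25 (rank 552), ubc-6 (rank 776, shared with aka-1), ubc-9 (rank 846) and uev-1 (rank 899). At uev-1 the nearest region ranked 3154 in replicate 1 and 1011 in replicate 2. The COP9 signalosome, a complex built like the proteasome lid, counted 0 of 6, and its strongest region was at csn-4 (rank 1530, 33 bp downstream of the 5′ end). These shares stand beside 5.51% of all genes, and no test was made of a list.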

How the data were processed

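ChIP-seq of GFP-tagged C04F5.9 in whole first-stage larvae gave 2 replicates of 1 group, numbered by the labels. Per the companion text deposited with the data, relaxed regions were called on ce11 alignments against a control alignment, per replicate and for both combined, and the optimal list derives from all 3. The aligner, caller and cutoff were not given in the sources used here. The signal value and −log10 q value of each region are the authors' deposited values. Signal is scaled by each calling run, so values were ranked and set against a median only within a list. The q value was not used. Lists in ce10 were not used here, and no coordinate was converted.

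Distances were computed from the deposited summit offset to every transcript 5′ end (Ensembl release 115, with all ce11 regions inside the RefSeq WBcel235 chromosomes) in Python 3.11.15 with pandas 2.3.3. The nearest-summit step recovered 200 of 200 planted summits. All 33 genes are named, with full values for those with an optimal peak. Of 25 symbols in the regulator list, 23 were found. The members, lists and words were chosen with earlier results of these data known, so shares are set beside all protein-coding genes and nothing was tested. Alternatives were windows of 250 and 1000 bp, 1000 bp upstream to 100 bp downstream, the outermost 5′ end, the nearest gene of each summit, any base of the region, fewer regions and each replicate alone. Read depth is unknown.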

Additional observations from a re-analysis of the deposited data

How the results depend on the processing

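The 9 genes with an optimal peak (5.51% of all genes) numbered 8 with a 250 bp window (3.71%, without rpn-2) and 8 with the outermost 5′ end (5.28%, without rpt-4). They numbered 9 with a 1000 bp window (6.89%), 1000 bp upstream to 100 bp downstream (6.56%) or any base of the region (6.03%). With only the nearest gene of each summit the count was 6 (4.04% of all genes), without pas-3, pas-4 and rpt-4. Among the 602 strongest peaks it was 4 (3.08% of all genes). The top 1205 regions of either replicate alone gave 9 each (5.51% and 5.33% of all genes without replicate 1 and 2), but without replicate 1 rpt-2 and rpt-4 gave way to pbs-1 and pbs-2. The combined-list count of 30 (37.8% of all genes) was 19 with a 250 bp window (24.97%), 19 in the 5000 strongest regions (13.9%), and 28 to 29 with either replicate alone (37.4% and 36.5%). By class, alpha counted 0 with the nearest gene only and 1 among the 602 strongest. ATPases counted 1 with the outermost 5′ end, 1 with the nearest gene only and 0 among the 602 strongest. The other base genes counted 0 at 250 bp and 0 among the 602 strongest. With either replicate left out, beta genes counted 1 to 3 and ATPases 0 to 2. The median rank of 3410 was 2195 with the strongest summit in the window and 2472 to 3020 in single replicates. The smaller window, the 602 strongest peaks and the 5000 strongest regions admit fewer summits by construction. The cause of the changes in single replicates was not tested. No paired analysis was possible because the samples form 1 group.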
